A study of Mus musculus with 12 samples.

Results

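The noncoding RNAs described here are 7 small nucleolar RNA (snoRNA) host genes, *Gas5*, *Snhg1*, *Snhg3*, *Snhg5*, *Snhg6*, *Snhg8* and *Snhg12*, and 2 nuclear long noncoding RNAs, *Neat1* and *Malat1*. They were chosen by name, and these 9 genes are all present among the 32288 genes and transgenes of the count table. Expression was measured by bulk RNA-seq of membrane GFP+ cells sorted from the metaphysis of mouse femurs and tibias, after cells with CD31, CD45 or TER119 on their surface and dead cells had been removed. All mice carried *Osx-CreERT2*, a tamoxifen-inducible Cre expressed from the osteoblast gene *Osx* (*Sp7*), and the *mTmG* reporter, which turns from red to green fluorescence in cells where Cre has acted and in their descendants.

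There were 4 groups. The juvenile *Osx*+ (3 weeks of age, 4 libraries) and adult *Osx*+ (8 weeks of age, 4 libraries) groups carried only these 2 alleles, received tamoxifen on 3 days and were collected 2 days later, with 2 male mice pooled per library. The *c-Myc* group (2 libraries) also carried *LSL-tTA* and *Col1a1::TetO-c-Myc*, so that Cre releases a transactivator which drives c-Myc when no doxycycline is given. The *c-Myc* + *R172H* group (2 libraries) carried in addition *Trp53-LSL-R172H*, a mutant allele of the p53 gene that Cre switches on. In induced mice tamoxifen was given on 2 days at the age of 3 weeks and cells were collected 7 days later, and their dissection is described at 5 weeks of age with the shaft cut at 5 mm rather than at 2 mm from the growth plate. The induced and juvenile groups therefore differed in transgene, schedule, age and dissection. By the paper's methods they also differed in how tamoxifen was dosed. Induced mice or their mothers had in addition received doxycycline or tetracycline beforehand. These differences cannot be told apart. The labels do not give the number of mice behind an induced library. Replicate 2 of each induced group carried female RNA and replicate 1 did not (*Xist*, below), so the libraries of a group did not come from the same set of mice, and p-values measure the spread between these libraries.

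snoRNA host genes are transcribed and spliced, and the snoRNAs are trimmed from their introns. Box C/D snoRNAs guide 2′-O-methylation and box H/ACA snoRNAs guide pseudouridylation, mostly of ribosomal RNA. The spliced host transcripts often begin with a run of pyrimidines, as ribosomal protein mRNAs do, and many of them are degraded by nonsense-mediated decay when they are translated. *Neat1* is the RNA scaffold of paraspeckles and *Malat1* is an abundant RNA of nuclear speckles, where splicing factors gather. The snoRNAs themselves are too short for this kind of library. Those annotated within the hosts have no entry of their own in the count table, so the values are those of the host transcripts.

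To show what the host loci carry, 1 snoRNA of each host is printed here from the GENCODE vM21 transcripts (GRCm38, the build called mm10), the shortest one with a Snord or Snora name and, where any has them, all boxes searched. Capitals mark TGATGA within the first 20 bases (box C) and the last CTGA (box D) of box C/D snoRNAs, and the last ACA of box H/ACA snoRNAs.
Snord47 in Gas5: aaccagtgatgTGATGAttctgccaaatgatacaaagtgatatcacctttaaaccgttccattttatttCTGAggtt
Snord22 in Snhg1: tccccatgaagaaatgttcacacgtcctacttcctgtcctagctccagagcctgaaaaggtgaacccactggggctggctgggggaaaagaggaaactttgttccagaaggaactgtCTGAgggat
Snora73a in Snhg3: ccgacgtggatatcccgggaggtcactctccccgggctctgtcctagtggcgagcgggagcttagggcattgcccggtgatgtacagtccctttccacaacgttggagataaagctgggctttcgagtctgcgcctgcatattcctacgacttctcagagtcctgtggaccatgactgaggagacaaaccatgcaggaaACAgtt
Snord50b in Snhg5: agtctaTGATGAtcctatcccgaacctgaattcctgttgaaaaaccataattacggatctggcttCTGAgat
Snord87 in Snhg6: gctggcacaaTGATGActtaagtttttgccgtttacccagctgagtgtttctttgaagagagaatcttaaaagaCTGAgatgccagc
Snora24 in Snhg8: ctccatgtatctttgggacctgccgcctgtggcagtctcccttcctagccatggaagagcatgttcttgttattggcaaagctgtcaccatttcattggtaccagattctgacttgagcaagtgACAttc
Snord99 in Snhg12: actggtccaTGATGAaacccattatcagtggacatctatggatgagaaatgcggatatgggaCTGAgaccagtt
The hosts thus carry both classes, with box H/ACA snoRNAs in *Snhg3*, *Snhg8* and *Snhg12* and box C/D snoRNAs in the others and in *Snhg12*. *Gas5* spans chr1:161034422-161038539 on the plus strand and overlaps 9 separate snoRNA loci, and *Snhg1* spans chr19:8723475-8726443 on the plus strand with 8. *Snhg12* (chr4:132308623-132311024, plus strand) holds 4, and *Snhg3* (chr4:132348014-132353686, minus strand) and *Snhg5* (chr9:88521050-88522929, minus strand) hold 2 each. *Snhg6* (chr1:9941959-9944118, minus strand) and *Snhg8* (chr3:123507552-123508404, minus strand) hold 1 each. *Neat1* (chr19:5824708-5845478, minus strand) and *Malat1* (chr19:5795690-5802672, minus strand) lie next to each other and hold no annotated snoRNA.

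The start regions of the hosts are shown because the transcripts are known for their pyrimidine-rich starts. Each line runs from 40 bases before the annotated start to 20 bases from it, taken from RefSeq promoter windows of GRCm38.p6, and capitals mark the longest run of C or T that begins within 10 bases of the start.
Gas5 start, chr1:161035126-161035185, plus strand: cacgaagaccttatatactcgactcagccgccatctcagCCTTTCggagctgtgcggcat
Snhg1 start, chr19:8723447-8723506, plus strand: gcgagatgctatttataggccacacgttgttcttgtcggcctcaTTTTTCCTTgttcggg
Snhg3 start, chr4:132353667-132353726, minus strand: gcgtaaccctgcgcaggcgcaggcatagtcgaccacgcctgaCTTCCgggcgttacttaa
Snhg5 start, chr9:88522878-88522937, minus strand: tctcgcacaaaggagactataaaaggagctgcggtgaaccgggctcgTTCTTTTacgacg
Snhg8 start, chr3:123508317-123508376, minus strand: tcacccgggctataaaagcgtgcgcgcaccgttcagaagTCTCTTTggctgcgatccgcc
Snhg12 start, chr4:132308638-132308697, plus strand: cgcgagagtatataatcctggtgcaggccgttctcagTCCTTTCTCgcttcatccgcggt
Malat1 start, chr19:5802653-5802712, minus strand: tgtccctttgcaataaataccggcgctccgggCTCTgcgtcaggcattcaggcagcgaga
The run was 9 bases long at *Snhg1* and *Snhg12*, 7 at *Snhg5* and *Snhg8*, 6 at *Gas5* and 5 at *Snhg3*, against 4 at *Malat1*. Of 32851 RefSeq windows, 40.7% had a run of at least 5 within these limits, 25.3% of at least 6, 16.2% of at least 7 and 6.87% of at least 9, so a run of this kind is not rare. Counted strictly from the annotated first base, a run of at least 4 was present at *Gas5*, *Snhg8* and *Snhg12* and in 6.86% of all windows. A further *Gas5* window, with an annotated start further upstream at position 161034601, had a run of only 3. The letters CACGTG, an E-box bound by MYC and other factors, were in none of these windows from 250 bases before to 50 after the start on either strand, and in 7.15% of all windows. These matches are descriptions of the letters in these windows. *Snhg6* and *Neat1* have no window in the table used.

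The libraries held 9066154 to 15684412 counts. *Col1a1*, the main collagen gene of osteoblasts, took 21.4% to 39.1% of the counts of juvenile and adult libraries and 5.61% to 11.3% in induced ones, whereas *Gm26917*, a gene model beside an annotated rRNA entry, took 4.70% to 10.5% and 26.5% to 29.4%. Levels are therefore given as CPM, the usual count of a gene relative to the total of its library, scaled here with TMM factors, which are computed from the bulk of the genes so that a few abundant ones do not set the scale. In this unit 3 counts, taken as the limit of detection, corresponded to between 0.137 and 0.417 CPM. All 9 noncoding RNAs were above this limit in every library. *Myc* had 286 to 506 counts in the juvenile and adult libraries and 11599 to 15063 in the induced libraries. The sorted cells carried osteoblast transcripts, with none of 9 osteoblast markers at 0 in any library, while the 4 endothelial markers summed to at most 1.14 CPM and the 6 haematopoietic markers to at most 11.1 CPM. Other markers were higher: the 3 osteoclast markers summed to 129 to 151 CPM in juvenile and 93.0 to 115 CPM in adult libraries. The 4 stromal markers summed to 261 to 346 CPM in juvenile and 323 to 570 CPM in adult libraries. The summed osteoblast markers fell from between 571515 and 840239 CPM in juvenile libraries to between 56424 and 132323 CPM in induced ones, and the 8 chondrocyte markers from between 8536 and 25334 to between 159 and 540 CPM. In bulk samples such as these, fewer cells of a type and less RNA per cell cannot be told apart. *Xist*, which is transcribed from the inactive X of females, had 4118 and 4263 counts in replicate 2 of the *c-Myc* and *c-Myc* + *R172H* groups and 0 to 11 in the other libraries, so 1 library of each induced group carried RNA of female cells whereas all controls were labelled male.

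In the juvenile metaphysis, *Malat1* stood far above the others per length of annotated exon, at 194 ± 34.7 CPM per kb (SD, n = 4), the rank of 54 among 32235 genes. The other 8 were between 1.88 ± 0.168 CPM per kb (*Snhg12*) and 6.76 ± 1.03 CPM per kb (*Gas5*). Their order was *Gas5*, *Snhg5*, *Snhg3*, *Neat1*, *Snhg8*, *Snhg1*, *Snhg6* and *Snhg12*, and the ranges of every pair of neighbours in this order overlapped. In *c-Myc* libraries the order per kb was *Malat1* (101 ± 19.2, SD, n = 2), *Snhg3* (23.2 ± 0.161), *Gas5* (21.3 ± 1.98), *Snhg5* (19.5 ± 3.39), *Snhg8* (18.1 ± 1.35), *Snhg12* (12.9 ± 0.810), *Snhg1* (12.6 ± 0.940), *Snhg6* (6.78 ± 0.972) and *Neat1* (6.49 ± 1.12). Here *Snhg3* did not overlap *Gas5*, *Snhg8* did not overlap *Snhg12* and *Snhg1* did not overlap *Snhg6*, while the other neighbours below *Malat1* overlapped. The annotated exons of *Snhg1*, *Snhg8* and *Snhg12* include retained introns and fill the whole gene, which lowers their values per kb. Those of *Gas5* and *Snhg5* cover most of the gene, with at least part of each annotated snoRNA, so their values are lowered too. By contrast, *Neat1* is annotated as a single block of 20771 bases.

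The first comparison asks how juvenile and adult osteoblasts differ. No member passed the test between the ages, in either direction, by edgeR's quasi-likelihood test. The largest difference was that of *Snhg5*, the host of Snord50a and Snord50b, which averaged 11.6 ± 4.26 CPM (SD, n = 4) in juvenile and 5.83 ± 1.91 CPM (SD, n = 4) in adult libraries. *Malat1* averaged 1353 ± 243 CPM (SD, n = 4) in juvenile and 1917 ± 477 CPM (SD, n = 4) in adult libraries. Among the 11345 genes tested, 1.89% were called higher and 3.23% lower in juvenile osteoblasts, and 12.9% had ages that did not overlap, whereas the ages overlapped for each of the 9 members. At an unadjusted p below 0.05 there were 2 members, *Snhg5* and *Malat1*, beside 2233 of the 11345 genes tested. At that threshold 2 of 9 is near the share of all genes. DESeq2 called these 2 members, beside 372 genes higher and 628 lower in all.

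*Snhg5* was at 10.2, 12.7, 16.8 and 6.71 CPM in juvenile libraries 1 to 4 and at 4.46, 4.52, 5.82 and 8.53 CPM in adult libraries 1 to 4. Juvenile library 4 lay below adult library 4, and the other 3 juvenile libraries lay above all adult ones. The log2 fold change, called log2 change from here on, was 0.98 ± 0.32 (SE), with an adjusted p of 0.0808 by edgeR's quasi-likelihood test. It passed in 4 of 17 alternatives. These were DESeq2 (adjusted p = 0.0454), the fit without juvenile library 4 (log2 change 1.17, adjusted p = 0.0491), no filter and all 12 libraries in 1 fit. Over the 17 alternatives the adjusted p ranged from 0.0286 to 0.228.

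*Malat1* was at 1119, 1207, 1662 and 1425 CPM in juvenile libraries and at 1589, 1840, 1627 and 2613 CPM in adult libraries. Only juvenile library 3 reached the adult range, and adult library 4 stood highest. The log2 change was -0.51 ± 0.17 (SE) and the adjusted p was 0.0989. Scaled to library totals instead of TMM factors, the log2 change was -0.80 (adjusted p = 0.0132) while the median of all genes moved to -0.24, and DESeq2 gave an adjusted p of 0.0446. *Malat1* passed in 3 of 17 alternatives, over which the adjusted p ranged from 0.00689 to 0.294.

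*Neat1* was at 70.1, 76.7, 118 and 119 CPM in juvenile libraries and at 90.9, 94.7, 100.1 and 265 CPM in adult libraries. Adult library 4 was far above the other 11 libraries except 1 of *c-Myc* + *R172H*, and the other adult libraries lay within the juvenile range. The log2 change was -0.53 ± 0.42 (SE, adjusted p = 0.578) and 0.0047 without adult library 4. *Gas5* was also highest there, at 48.5 CPM against 20.2 to 25.1 CPM in the other adult libraries, and its log2 change moved from -0.20 to 0.16 without that library. The other 5 hosts had log2 changes between -0.71 (*Snhg8*) and 0.16 (*Snhg1*), with adjusted p-values of 0.323 to 0.866 by edgeR. For *Snhg3*, *Snhg6* and *Snhg8* the SE was 0.34 to 0.49, so changes of this size were not detectable between these libraries. Their counts in single control libraries went down to 33, 17 and 12, while *Neat1* had an SE of 0.42 with 743 to 2481 counts. The part of low counts in these SEs was not tested.

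In the related lists, few genes passed between the ages. *Rian*, a noncoding host of many snoRNAs at the imprinted *Dlk1* and *Meg3* locus, had 0 to 13 counts in juvenile and 43 to 155 counts in adult libraries. The ages did not overlap, and the log2 change was -3.80 ± 0.71 (SE, adjusted p = 0.00980). *Meg3*, from the same locus, had 0 to 6 counts in juvenile and 16 to 95 counts in adult libraries, with a log2 change of -3.74 ± 0.79 (SE, adjusted p = 0.0115). The call of *Rian* was kept in 16 of 17 alternatives and that of *Meg3* in 15, and *Meg3* was not called without adult library 4 (adjusted p up to 0.0935). The only other genes called in these lists were the protein-coding snoRNA host *Taf1d* (-0.69 ± 0.19, adjusted p = 0.0408) and *Smarca4* (0.39 ± 0.11, adjusted p = 0.0493), which is on the list of paraspeckle proteins. Both lay close to the threshold: *Taf1d* was called in 10 of 17 alternatives, and its call was lost with the replicate block and without juvenile library 1, 2 or 4 or adult library 1, 3 or 4 (adjusted p up to 0.120). *Smarca4* was called in only 4 of 17, and its call was lost with RLE or upper-quartile factors, library totals, either other filter on low counts or the replicate block and without any 1 library other than adult library 2 (adjusted p up to 0.573). None of the 8 core proteins, the 8 assembly factors, the 10 nonsense-mediated decay factors or the 12 nuclear speckle proteins passed by edgeR's test, and their median log2 changes lay between -0.14 and 0.15. Summed chondrocyte markers were at 8536 to 25334 CPM in juvenile and at 33581 to 122638 CPM in adult libraries, and the 6 haematopoietic markers at 0.457 to 4.59 and at 5.16 to 10.05 CPM. Their part in these values was not tested.

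The second comparison asks what differs once c-Myc is induced in juvenile osteoblasts. All 7 snoRNA hosts rose, by between 2.05-fold (*Snhg6*) and 6.76-fold (*Snhg12*), while *Malat1* fell by 0.97 on the log2 scale and *Neat1* did not pass the test. In edgeR's quasi-likelihood test 28.4% of the 12588 genes tested were called higher and 25.0% lower, so 7 of 9 members called higher compares with that background of 28.4%. Of the hosts, 7 were at least 2-fold higher, against 18.4% of all genes tested. The median log2 change of the hosts was 1.80 and that of all genes tested 0.04. None of the 7 hosts overlapped between *c-Myc* and juvenile libraries, against 35.7% of all genes that were higher without overlap, and 28.7% of all genes were lower without overlap, as *Malat1* was.

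**Figure D1:**
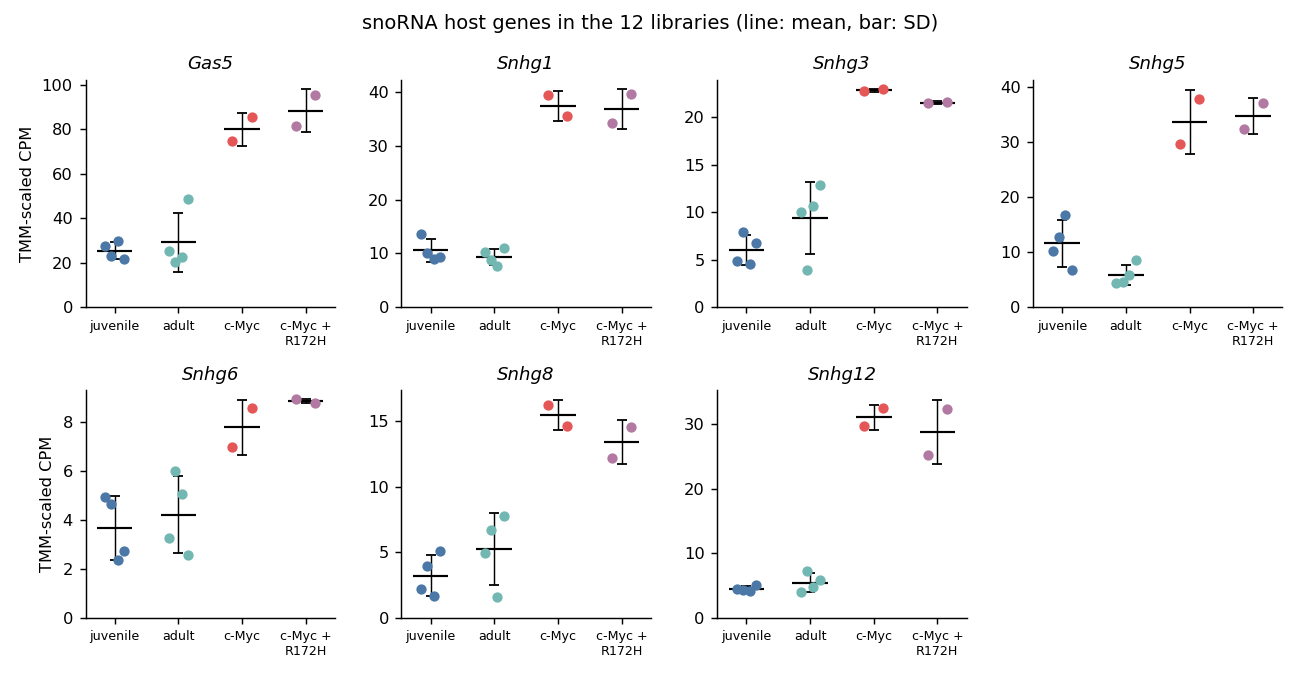
TMM-scaled CPM of the 7 snoRNA hosts on the y axis, from 0, in the juvenile, adult, c-Myc and c-Myc + R172H groups, with 1 point per library, a line at the mean and a bar for the SD (n = 4, 4, 2 and 2). Every induced library lies above every juvenile and adult library for each host. The groups lie closest together for Snhg6, where adult library 2 is at 5.98 and the lowest induced library at 6.99 CPM.

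*Snhg12*, whose introns carry Snora16a, Snora44, Snora61 and Snord99, was at 4.48, 4.33, 4.17 and 5.09 CPM in juvenile libraries and at 29.7 and 32.4 CPM in *c-Myc* libraries. It had the narrowest spread among juvenile libraries of the 9 RNAs and rose most. The resulting log2 change was 2.76 ± 0.18 (SE), with an adjusted p of 1.27e-07 by edgeR.

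*Snhg8*, the host of Snora24, was at 2.19, 3.92, 1.67 and 5.09 CPM in juvenile libraries and at 16.3 and 14.6 CPM in *c-Myc* libraries. The juvenile libraries varied widely among themselves, yet the lowest *c-Myc* library stood well above the highest of them. This gave a log2 change of 2.24 ± 0.33 (SE), with an adjusted p of 0.000100 by edgeR. *Snhg3*, the host of Snora73a and Snora73b, was at 4.84, 7.95, 4.59 and 6.71 CPM in juvenile libraries and at 22.7 and 23.0 CPM in *c-Myc* libraries. The groups were clearly apart, with a log2 change of 1.90 ± 0.22 (SE, adjusted p = 1.21e-05). *Snhg3* shares 135 exon bases, 13.7% of its exon length, with *Rcc1* on the same strand, and *Rcc1*, which encodes the nucleotide exchange factor of Ran, itself went from between 206 and 324 counts in juvenile to 2679 and 2104 counts in *c-Myc* libraries, so the assignment of reads in the shared bases is uncertain.

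*Gas5*, the host of the largest number of snoRNAs here, was at 27.7, 22.8, 29.6 and 21.5 CPM in juvenile libraries and at 74.8 and 85.4 CPM in *c-Myc* libraries. It supplied between 34.1% and 49.9% of the summed host counts in every library. Its log2 change was 1.63 ± 0.14 (SE, adjusted p = 1.06e-06). *Snhg1*, with a series of box C/D snoRNAs that includes Snord22, was at 13.7, 10.1, 9.04 and 9.32 CPM in juvenile libraries and at 39.5 and 35.6 CPM in *c-Myc* libraries. The groups did not overlap, with a log2 change of 1.80 ± 0.18 (SE, adjusted p = 3.63e-06).

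*Snhg5* was at 29.6 and 37.9 CPM in *c-Myc* libraries, above the highest juvenile library at 16.8 CPM. Its log2 change was 1.52 ± 0.25 (SE, adjusted p = 0.000253). *Snhg6*, the host of Snord87, was at 4.93, 4.64, 2.36 and 2.73 CPM in juvenile libraries and at 6.99 and 8.56 CPM in *c-Myc* libraries. This was the smallest change of the 7, with a log2 change of 1.03 ± 0.33 (SE) and an adjusted p of 0.0173, and the juvenile counts of 17 to 54 were among the lowest. *Snhg6* was no longer called when *c-Myc* library 1 or 2 was left out (log2 change 1.19 and 0.89, adjusted p = 0.0541 and 0.149), and its adjusted p ranged from 0.000578 to 0.149 over 17 alternatives. The other 6 hosts were called in each of the 17 alternatives, which include leaving out either library with female RNA.

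**Figure D2:**
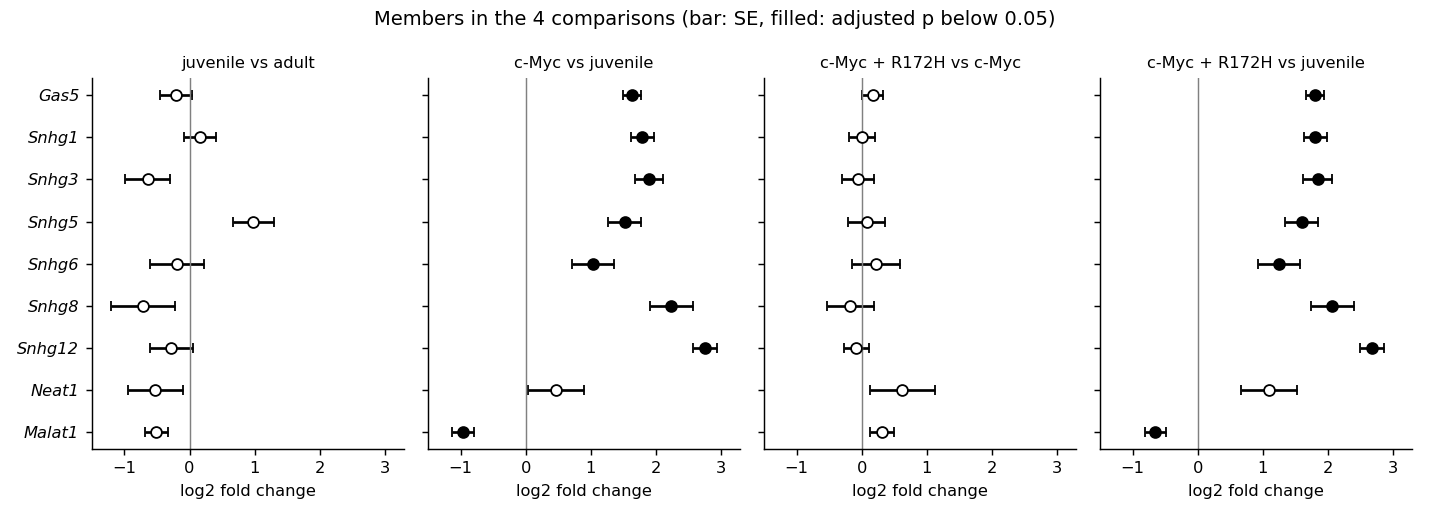
log2 fold change (x axis) of the 9 RNAs in the 4 comparisons, with bars for the SE and filled points where edgeR's adjusted p was below 0.05. The 7 hosts lie at 1.03 to 2.76 for c-Myc against juvenile and near 0 for c-Myc + R172H against c-Myc, while Malat1 lies on the negative side against juvenile.

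Counted together, the 7 hosts summed to between 57.1 and 68.3 CPM in juvenile, 57.2 and 97.1 CPM in adult, 220 and 237 CPM in *c-Myc* and 216 and 249 CPM in *c-Myc* + *R172H* libraries. Juvenile and adult sums overlapped, and the sums of both induced groups lay above all of them. Markers of several cell types moved in the same comparison. All 9 osteoblast and all 8 chondrocyte markers fell, by a median log2 change of -2.04 and -5.51. Of 4 stromal markers 3 fell (summed from between 261 and 346 to 76.2 and 150 CPM), and of 3 osteoclast markers 2 were tested and *Ctsk*, which encodes cathepsin K, fell (-3.00 ± 0.16, SE). Of 6 haematopoietic markers 2 were tested and *Lyz2*, the lysozyme of myeloid cells, rose (4.23 ± 0.74, SE, adjusted p = 0.000380), with a sum of all 6 of 0.457 to 4.59 CPM in juvenile and 9.87 and 11.1 CPM in *c-Myc* libraries. Of 7 genes of the response to cell dissociation 6 fell, with a median of -0.70. The part of these markers in the hosts' values was not tested. With library totals the hosts' log2 changes were between 1.83 and 3.58 while the median of all genes moved to 0.87, so each host was above that shift on either scale. On that scale 85.9% of the genes called were higher, against 53.2% with TMM factors.

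Other genes of the same biology were counted from lists. Of 14 other noncoding snoRNA hosts, 11 were tested and 8 rose, 1 fell and 2 did not pass, with a median of 2.16 against 0.04 for all genes tested. *Snhg4* and *Snhg14* had 0 counts in all juvenile libraries and 14 and 12, and 5 and 15, in the *c-Myc* libraries. They passed the filter on low counts only through the induced libraries, so only a rise could be seen for them. Both are included in the 8 and in the median, and the call of each was kept in 14 of 17 alternatives. *Dancr* went from 0 to 12 counts in juvenile to 165 and 145 counts in *c-Myc* libraries, with a log2 change of 3.63 ± 0.61 (SE, adjusted p = 0.000298). The one that fell was *Snhg18*, by 0.96 (adjusted p = 0.00163). With library totals 8 rose and 0 fell, and with the other 16 alternatives between 4 and 8 rose, the lowest number when every library had to hold at least 10 counts. That setting left out *Snhg4*, *Snhg14*, *Snhg20* and *Dancr*, each of which had 0 counts in juvenile library 3.

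Of 37 protein-coding snoRNA hosts, many of which encode ribosomal proteins or translation factors, 33 rose and 4 did not pass (median 0.74). *Taf1d*, which encodes a subunit of the RNA polymerase I factor SL1, had a log2 change of 2.79 ± 0.18 (SE), *Ptcd3* one of 2.54 ± 0.17 and *Ncl*, which encodes nucleolin, one of 2.53 ± 0.13. All 8 core proteins of snoRNA particles rose, with a median of 2.38. Among them, *Nhp2* and *Dkc1*, which encode H/ACA proteins, had log2 changes of 2.71 ± 0.14 and 2.47 ± 0.14, and *Fbl*, the C/D methyltransferase fibrillarin, one of 2.59 ± 0.16. Of 8 assembly factors 7 rose (median 2.44), with *Ruvbl2* at 2.97 ± 0.13, *Shq1* at 2.97 ± 0.26 and *Nolc1* at 2.79 ± 0.16, while *Pih1d1* was at -0.23 (adjusted p = 0.425). The lowest and highest numbers called higher over the 16 alternatives other than library totals were 30 and 34, 7 and 8, and 6 and 7 in these 3 lists, and none of their genes was called lower.

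Of 10 nonsense-mediated decay factors 6 rose and 4 did not pass, with a median of 0.59. *Upf3b* had a log2 change of 1.24 ± 0.46 (SE, adjusted p = 0.0370) but was called in only 10 of 17 alternatives (adjusted p up to 0.226, lost without either *c-Myc* library), *Smg5* one of 0.99 ± 0.12 and *Upf1*, the central helicase, one of 0.92 ± 0.10. Between 4 and 8 of these 10 were called higher over the alternatives other than library totals, and 10 with library totals.

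**Figure D3:**
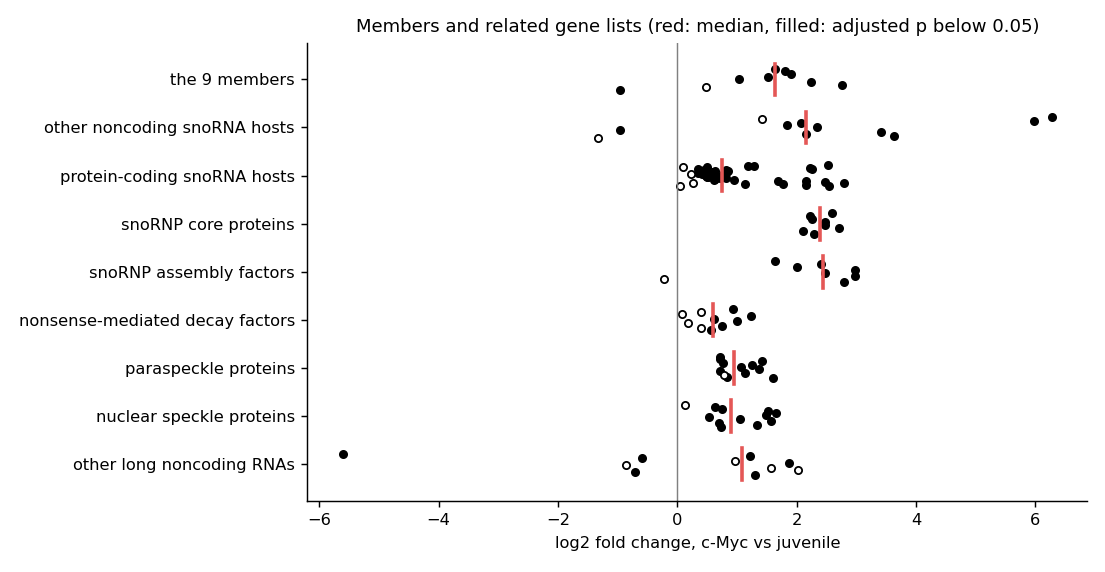
log2 fold change of c-Myc against juvenile libraries (x axis) for the 9 RNAs and for the genes of 8 lists (y axis), 1 point per gene, filled where edgeR's adjusted p was below 0.05, with a red line at the median. The core proteins and assembly factors of snoRNA particles have medians of 2.38 and 2.44, and the paraspeckle and nuclear speckle proteins of 0.95 and 0.90.

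*Malat1* was at 608 and 797 CPM in *c-Myc* libraries, below the lowest juvenile library at 1119 CPM. Its log2 change was -0.97 ± 0.17 (SE), with an adjusted p of 0.000323 by edgeR. As CPM of all counts, without TMM factors, it was at 969, 957, 1165 and 984 in juvenile and at 848 and 1020 in *c-Myc* libraries, and on that scale the groups overlapped. With library totals the log2 change was -0.12 (adjusted p = 0.459), beside a median of all genes of 0.87, so the fall of *Malat1* is relative to the bulk of other genes. It was called lower in the other 16 alternatives.

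*Neat1* was at 118 and 151 CPM in *c-Myc* libraries and thus overlapped the juvenile range at its upper end. The log2 change was 0.47 ± 0.43 (SE, adjusted p = 0.397). With library totals it was 1.32 (adjusted p = 0.00144), and over 17 alternatives the adjusted p ranged from 8.93e-05 to 0.770. Within a library, where scaling cancels, there were 6.27 to 8.37 *Neat1* counts per 100 *Malat1* counts in juvenile, 5.15 to 10.1 in adult and 18.96 and 19.5 in *c-Myc* libraries. The ratio did not overlap between juvenile and *c-Myc* libraries. It shows that the 2 RNAs changed unequally.

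**Figure D4:**
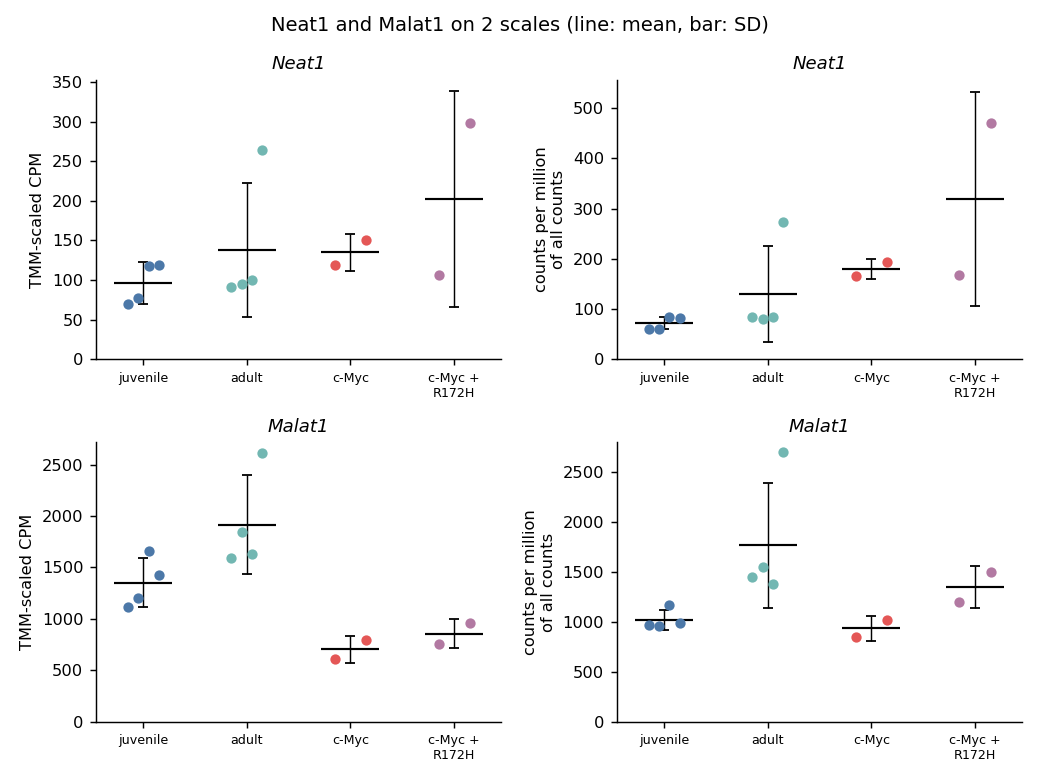
Neat1 (top) and Malat1 (bottom) in the 4 groups as TMM-scaled CPM (left) and as CPM of all counts (right), with y axes from 0, 1 point per library, a line at the mean and a bar for the SD (n = 4, 4, 2 and 2). On the left both c-Myc points of Malat1 (608 and 797) lie below all juvenile points, on the right (848 and 1020) they overlap them, and 1 adult and 1 c-Myc + R172H point of Neat1 stand far above the rest.

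Most genes for protein partners of these RNAs rose. Of 12 paraspeckle proteins 11 rose (median 0.95), with *Tardbp* at 1.61 ± 0.12, *Pspc1* at 1.42 ± 0.21 and *Taf15* at 1.36 ± 0.19 in log2 change (SE). Of 12 nuclear speckle proteins 11 rose (median 0.90), with the splicing factors *Srsf2* at 1.66 ± 0.09, *Srsf7* at 1.58 ± 0.13 and *Srsf1* at 1.51 ± 0.11, while *Son* was at 0.13 (adjusted p = 0.308). Of 12 other long noncoding RNAs 10 were tested, and 3 rose, 3 fell and 4 did not pass. *H19*, an imprinted RNA of fetal tissues and of growth plate cartilage, went from between 249 and 817 counts in juvenile to 21 and 29 counts in *c-Myc* libraries. Its log2 change of -5.60 ± 0.70 (SE, adjusted p = 0.000178) stood beside the fall of the chondrocyte markers, and their part in it was not tested. *Pvt1*, the neighbour of *Myc* in the genome, had a log2 change of 1.87 ± 0.36 and *Rmrp*, the RNA of RNase MRP, one of 1.30 ± 0.22. With library totals 6 of these 10 rose and 1 fell.

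The third comparison asks what mutant p53 adds to c-Myc. No member was called between *c-Myc* + *R172H* and *c-Myc* libraries by edgeR's quasi-likelihood test, against 0.00794% of all genes called higher and 0.461% lower, and the adjusted p was 1 for each. None of the 9 had an unadjusted p below 0.05, beside only 589 of the 12588 genes tested. DESeq2 called none of the 9, beside 8 genes higher and 200 lower in all. The hosts' log2 changes lay between -0.17 ± 0.36 (*Snhg8*) and 0.22 ± 0.36 (SE, *Snhg6*), with a median of 0.01, and with 2 libraries on each side a change within these SEs was not detectable. *Gas5* was at 81.4 and 95.3 CPM, *Snhg1* at 34.3 and 39.6 CPM and *Snhg12* at 25.3 and 32.3 CPM in *c-Myc* + *R172H* libraries, each overlapping the *c-Myc* values, as *Snhg5* did. The other 3 hosts did not overlap: *Snhg6* was higher, at 8.93 and 8.79 CPM against 6.99 and 8.56 CPM, *Snhg3* was lower, at 21.5 and 21.6 CPM against 22.7 and 23.0 CPM, and *Snhg8* was lower, at 12.2 and 14.59 CPM against 16.3 and 14.63 CPM. With 2 libraries against 2, 45.0% of all genes tested did not overlap in one direction or the other, and none of these 3 differences passed the test.

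*Neat1* differed between the *c-Myc* + *R172H* libraries, at 106 CPM in library 1 and 299 CPM in library 2. Library 2 was the highest of all 12 libraries for *Neat1*, and library 1 lay below both *c-Myc* libraries. Between the groups the log2 change was 0.62 ± 0.50 (SE), and it was -0.35 without *c-Myc* + *R172H* library 2 and 1.16 without library 1. Library 2 is the one with *Xist* counts, whose part was not tested, while *c-Myc* library 2, which also has them, was at 151 CPM. *Malat1* was at 754 and 955 CPM, overlapping the *c-Myc* libraries, with a log2 change of 0.31 ± 0.18 (SE).

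The *c-Myc* + *R172H* libraries were also compared with the juvenile libraries, which are the same ones as in the *c-Myc* comparison. All 7 hosts rose and *Malat1* fell, beside 30.4% of all genes called higher and 26.3% lower. The hosts' log2 changes were 2.68 ± 0.18 (SE) for *Snhg12*, 2.06 ± 0.33 for *Snhg8*, 1.84 ± 0.22 for *Snhg3*, 1.81 ± 0.14 for *Gas5*, 1.80 ± 0.18 for *Snhg1*, 1.60 ± 0.25 for *Snhg5* and 1.25 ± 0.32 for *Snhg6*. Their adjusted p-values ran from 1.09e-07 (*Snhg12*) to 0.00531 (*Snhg6*) by edgeR, and each of the 7 was called in all 17 alternatives. The related lists gave 8 higher and 1 lower of 11 noncoding hosts, 34 higher of 37 protein-coding hosts, all 8 core proteins, 7 of 8 assembly factors, 8 of 10 nonsense-mediated decay factors, all 12 paraspeckle proteins, 11 of 12 nuclear speckle proteins, and 5 higher and 3 lower of 10 other long noncoding RNAs, with *Fbl* at 2.71 ± 0.15 (SE), *Ruvbl2* at 2.96 ± 0.13 and *H19* at -4.70 ± 0.65. *Snhg4* and *Snhg14*, without counts in juvenile libraries, were again among the 8 noncoding hosts called higher.

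*Malat1* had a log2 change of -0.65 ± 0.16 (SE, adjusted p = 0.00433) against juvenile libraries. This direction turned with library totals, to 0.41 (adjusted p = 0.0181), beside a median of all genes of 1.12, and the call was lost without *c-Myc* + *R172H* library 1 (-0.52, adjusted p = 0.0629). *Neat1* was at 1.09 ± 0.42 (SE, adjusted p = 0.0656). It was at 0.12 without *c-Myc* + *R172H* library 2 and at 1.63 (adjusted p = 0.000231) without library 1, and over 17 alternatives the adjusted p ranged from 5.59e-20 to 0.765. The *Neat1* counts per 100 *Malat1* counts were 14.1 in library 1 and 31.3 in library 2, both above every juvenile and adult library.

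The genes whose profile over the 12 libraries was nearest to each RNA were found by the root mean square difference of centred log2 CPM, among 9380 other genes with at least 10 counts in every library. *Snhg1* had the nearest neighbours, *Cpsf1* (0.12) and *Phb2* (0.13). *Gas5* was nearest to *L3mbtl2* (0.20) and *Utp15* (0.21), *Snhg12* to *Rbm19* (0.21) and *Spc24* (0.26), and *Snhg6* to *Ccnk* (0.21) and *Sart3* (0.27). *Snhg3* was nearest to *Diaph3* (0.25) and *Nudt5* (0.26), *Snhg5* to *Mrps22* (0.26) and *Zfas1* (0.33), itself a noncoding snoRNA host, and *Snhg8* to *Surf2* (0.47) and *Naf1* (0.48). *Malat1* was nearest to *Insig1* (0.19) and *Pdcd4* (0.22), and *Neat1* to *Lrrc45* (0.34) and *Fam193b* (0.38). Between members, *Gas5* and *Snhg1* were the most alike (0.32), and *Snhg12* and *Malat1* the least (1.74). These distances describe 12 libraries in 4 groups and are dominated by the difference between control and induced libraries.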

How the data were processed

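RNA of the sorted cells was made into directional libraries and read as single ends. Per the labels and the paper's methods, reads were trimmed by the authors (cutadapt 4.6), mapped to mm10 (STAR 2.7.11a) and, where they mapped once, counted by gene (HTSeq 2.0.5). They deposited raw counts of 32288 genes in 12 libraries, without normalization. The strand setting of the counting and the way rRNA was removed are not given in the sources used here. Reads of overlapping genes on opposite strands may therefore have been given to either gene or left uncounted. Of the exon length of *Snhg3*, 71.5% lies opposite *Gm17300*, which had at most 6 counts in any library, and 11.1% of that of *Snhg6* lies opposite *Mcmdc2*, which had at most 7. These low counts do not show whether reads in the shared bases were left uncounted.

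edgeR 4.0.16 under R 4.3.3 was used for testing, with TMM factors, the default filter on low counts, a robust quasi-likelihood fit, and Benjamini-Hochberg adjustment over all genes at 0.05, with at least 2-fold as a further threshold for *c-Myc*. Juvenile and adult libraries (8) formed the fit for age, and the 2 induced groups with the juvenile libraries formed the other. The SE was taken as the size of the log2 change over the root of its F statistic. CPM are scaled over all 12 libraries. Alternatives were RLE and upper-quartile factors, library totals, *Col1a1*, *Col1a2* and *Gm26917* left out, no filter, at least 10 counts in every library, DESeq2 1.42.0, all 12 libraries in 1 fit, a replicate block and each library left out. Where this leaves 1 library in a group, that library is assumed to vary as the others do.

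Libraries were grouped by their titles. Counts of each pair of replicates differed by more than sampling noise (chi-square over degrees of freedom between 5.75 and 147). The limit of 3 counts and the total counts cover counting error only. The steps were also tested on simulated data drawn with means of these libraries. Of 100 genes changed 2-fold among 12252, 48% were called for *c-Myc* against juvenile, and 43% among 12245 for *c-Myc* + *R172H* against *c-Myc*. For juvenile against adult, 48% of 100 genes changed 2-fold among 11088 were called. A further 100 genes were changed 4-fold each time. Of these, 73% were called for *c-Myc* against juvenile, 73% for *c-Myc* + *R172H* against *c-Myc* and 83% for juvenile against adult. In the same order, 11, 4 and 7 unchanged genes were called. For *c-Myc* against juvenile the real libraries gave 3577 genes higher and 3149 lower, far more than were changed here, so the share called may differ there. The members, the gene lists and the alternatives were chosen with earlier results of these data known. Named are the 9 members, in each list up to 3 called genes with the largest change, and the 2 nearest genes of each member. Genes outside this rule (*Son*, *Pih1d1*, *Snhg18*, *Snhg20*) were chosen after their values were seen. Gene positions are from GENCODE vM21, and promoter windows from RefSeq.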

Additional observations from a re-analysis of the deposited data

Results flagged for a closer look

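*Neat1* in adult library 4 was at 265 CPM, while the other adult libraries were at 90.9 to 100.1 CPM. Its distance to the next library, divided by the range of the group, was above Dixon's 95% critical value for 4 samples. Such a distance was looked for in 18 groups of 4 (9 RNAs at 2 ages), chance passes the limit in about 1 of 20 groups, and this was the only one that did. In the same library *Gas5* (48.5 CPM) and *Malat1* (2613 CPM) were also the highest of the adult group, while the chondrocyte markers summed to 72388 CPM, within the adult range of 33581 to 122638 CPM.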

How the results depend on the processing

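The 7 hosts stayed higher in induced than in juvenile libraries under each of the 17 alternatives, and of the values of single members under alternatives 576 kept their direction and side of the threshold, 17 turned, 15 gained and 4 lost a call. Where a cause is not named, it was not tested. Library totals moved most counts: genes called higher and lower went to 53 and 793 for age, 6803 and 1115 for *c-Myc* (5234 and 700 by 2-fold) and 7668 and 1169 for *c-Myc* + *R172H* against juvenile, 11 were lower for *c-Myc* + *R172H* against *c-Myc*, 1 member was lower for age, 0 members were lower in both comparisons with juvenile, and *Malat1* turned to 0.41 in the last. On library totals 6.26% of age calls were higher, against 36.8%, and the log2 fold changes of *Snhg1* (age, -0.075) and of *Snhg3*, *Snhg8* and *Snhg12* (*c-Myc* + *R172H* against *c-Myc*, 0.16, 0.031 and 0.13) turned. Without a filter, by DESeq2 and with all 12 libraries in 1 fit, 399, 372 and 461 genes were higher and 578, 628 and 633 lower for age, with 1, 1 and 1 members higher and, for the first and second, 1 lower. The same settings gave 14, 8 and 0 higher and 208, 200 and 22 lower for *c-Myc* + *R172H* against *c-Myc*, with 1 member (*Neat1*) higher without a filter. *Snhg1* turned there to -0.016 with RLE factors, -0.015 by DESeq2 and -0.022 with all 12 libraries. The replicate numbers do not pair the libraries by the labels (correlations of same-numbered deviations from -0.08 to 0.05 for age). The correlation was 0.17 for the induced libraries, which also differ in *Xist* by number. With 2 libraries a group, both same-numbered pairs give the same value by construction. With the replicate block, 30 genes were higher and 296 lower for *c-Myc* + *R172H* against *c-Myc*, with 1 member (*Malat1*, 0.31, adjusted p = 0.0322) higher. Leaving out 1 library gave 85 to 344 genes higher and 199 to 541 lower for age, 0 to 1 members higher, 0 to 3 genes higher and 7 to 84 lower for *c-Myc* + *R172H* against *c-Myc*, and 0 to 1 members lower for *c-Myc* + *R172H* against juvenile. The range over libraries left out crossed 0 for age in *Gas5* (-0.34 to 0.16) and *Neat1* (-0.68 to 0.0047), both highest without adult library 4, and *Snhg6* (-0.37 to 0.034, highest without adult library 2). It crossed 0 for *c-Myc* + *R172H* against *c-Myc* in *Snhg1* (-0.13 to 0.086), *Snhg5* (-0.12 to 0.24), *Snhg12* (-0.30 to 0.063) and *Neat1* (-0.35 to 1.16). *Snhg8* and *Snhg6* had the lowest counts of the members, with 12 and 17 in their lowest libraries.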
